A study of Mus musculus with 15 samples.

Results

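The data concern 7 genes, Cdh1, Cdh17, Epcam, Plet1, Hepacam2, Krt80 and Dcstamp, of the 55486 in a count table from macrophages of mouse brain tumours. They were chosen from these same counts, because they were high in monocyte-derived macrophages (MDM) and most were lower in MDM sorted as lipid-laden. Their levels in MDM against microglia, and in lipid-laden against other MDM, are therefore a description and carry no test.

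Bulk RNA-seq had been done on cells purified by flow cytometry from primary brain tumours, and the labels give 15 libraries. The genotype was the same in every group, written Ink4a/ArfKO, PDGFB: the tumour is driven by the growth factor PDGFB, expressed in Nestin-positive progenitor cells, on a background without Ink4a/Arf, so controls without a tumour or with intact Ink4a/Arf are not part of the comparison. Microglia, the resident macrophages of the brain, gave 4 libraries of cells sorted as not lipid-laden (called microglia below) and 4 of cells sorted as lipid-laden. MDM, which enter from the blood, gave 4 libraries of cells sorted as not lipid-laden (called MDM below) and 3 of cells sorted as lipid-laden. The labels name no treatment, and the sources used here do not give the animals' ages, the stain or the gates. Libraries are named by the numbers of their titles, 221, 224, 431 and 718; among lipid-laden MDM, number 431 was not analysed here. The labels do not say that libraries of a group came from separate animals, so p-values measure the spread between these samples, which may be technical.

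Cdh1 encodes E-cadherin, which holds neighbouring epithelial cells together through calcium-dependent binding to the same protein on the next cell, and inside the cell is tied to actin through catenins. Cdh17 encodes liver-intestine cadherin, a relative with a short cytoplasmic tail that does not bind catenins, and Epcam encodes a calcium-independent adhesion protein of simple epithelia that is also found on Langerhans cells and some dendritic cells. Dcstamp encodes the transmembrane protein DC-STAMP, named for dendritic cells and required for the fusion of precursors into osteoclasts and of macrophages into giant cells, and E-cadherin too is induced in macrophages by interleukin-4 and takes part in their fusion.

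For 3 of the 7 genes, Epcam, Hepacam2 and Plet1, the RefSeq promoter table (build GRCm38.p6) held the sequence before the start site, and these are shown because the genes lie on different chromosomes and share the order of the groups, with MDM highest and microglia at or near 0. Each line gives the 250 bases upstream of the RefSeq start, 5′ to 3′ on the gene's strand. Capitals mark matches, on either strand, to the E-box CAGGTG, to the TATA box TATAAA and to the AP-1 form TGANTCA (N is any base). They stand at chr17:87635729-87635978 on the plus strand for Epcam, chr6:3494499-3494748 on the minus strand for Hepacam2 and chr9:50494275-50494524 on the plus strand for Plet1.
Epcam: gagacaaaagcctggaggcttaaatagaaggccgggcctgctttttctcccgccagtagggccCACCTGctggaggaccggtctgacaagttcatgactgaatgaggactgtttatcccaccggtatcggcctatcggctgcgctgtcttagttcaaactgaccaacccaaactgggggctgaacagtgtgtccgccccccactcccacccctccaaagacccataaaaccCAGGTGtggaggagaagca
Hepacam2: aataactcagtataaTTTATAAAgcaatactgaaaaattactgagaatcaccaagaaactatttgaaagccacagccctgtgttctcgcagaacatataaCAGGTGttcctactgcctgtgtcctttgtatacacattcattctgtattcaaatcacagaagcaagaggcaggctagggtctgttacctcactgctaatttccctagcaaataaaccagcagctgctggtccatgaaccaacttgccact
Plet1: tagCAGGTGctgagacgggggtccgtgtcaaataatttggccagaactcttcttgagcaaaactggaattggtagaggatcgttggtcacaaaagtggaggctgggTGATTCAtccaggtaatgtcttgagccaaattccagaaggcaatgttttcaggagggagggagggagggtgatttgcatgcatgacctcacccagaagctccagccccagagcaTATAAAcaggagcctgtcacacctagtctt

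All 3 windows held CAGGTG, the form of the E-box that the repressors Snail and Zeb are known to bind in the Cdh1 promoter. It began at -187 and -19 from the start in Epcam, with the first on the other strand, at -150 in Hepacam2 and at -247 in Plet1. Of 32536 RefSeq promoter windows of the same length, 17.3% held it on at least 1 strand. The looser E-box CANNTG, which contains it, was in 66.2% of windows and in all 3 of these. TATAAA began at -30 in Plet1 and at -233 in Hepacam2, where it overlapped a match on the other strand, and was absent from the Epcam window; 12.3% of all windows held it. The AP-1 form TGANTCA was found in Plet1 at -144 and in 6.73% of all windows. The STAT6 palindrome with a 4-base spacer (5.89% of all windows), GAGGAAGT, a PU.1 form (2.45%), and AACCGGTT, a grainyhead form (0.117%), had no match in these windows. The Epcam window was 56.4% G and C with 8 CpG, that of Plet1 50.0% with 3 and that of Hepacam2 40.4% with 1, against medians of 52.4% and 6 over all windows. The RefSeq start of Hepacam2 lies 3800 bp inside the gene as the count table bounds it, and the starts of Epcam and Plet1 are those of the table. These matches describe the letters in the windows only.

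Depth was alike across groups, with 7842531 to 9658143 counts per library of microglia, 8962885 to 9797627 of lipid-laden microglia, 7798952 to 11419338 of MDM and 9306839 to 10699235 of lipid-laden MDM. Levels are CPM, counts per 1000000 counts of a library whose size was scaled by the TMM method, and are given as mean ± SD. On the first principal component the lipid-laden MDM libraries, at 7.96 to 35.9, lay between MDM at 111 to 127 and both groups of microglia at -80.9 to -60.4. On the second, the lipid-laden libraries of number 221 stood farthest out, at 119 for microglia and 67.4 for MDM. All 7 genes passed the filter on low counts that 14843 genes passed.

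The 7 genes together made up 760.0 ± 44.8 CPM in MDM (n = 4), 67.9 ± 5.33 CPM in lipid-laden MDM (n = 3), 3.79 ± 2.64 CPM in microglia (n = 4) and 2.54 ± 2.60 CPM in lipid-laden microglia (n = 4). Lipid-laden MDM thus held 8.93% of the MDM level. The sum varied little between libraries of a group, from 723 to 825 CPM in MDM and from 64.7 to 74.0 CPM in lipid-laden MDM, while single genes varied more. In bulk RNA, fewer cells of a type and less RNA per cell cannot be told apart.

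**Figure D1:**
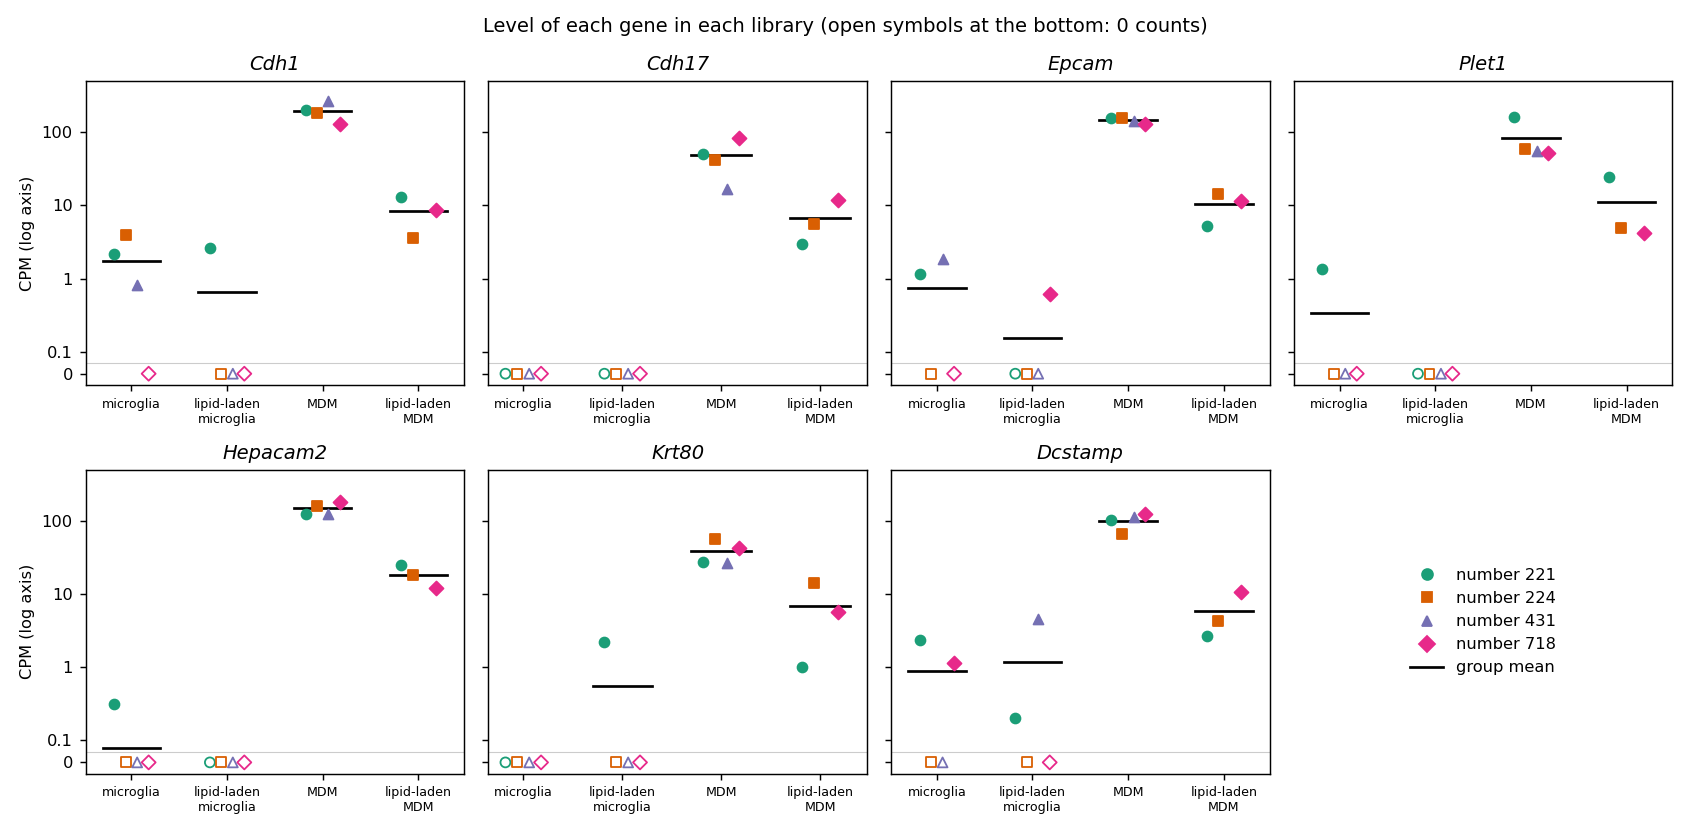
CPM of each of the 7 genes in every library, on a log axis with 0 set apart at the bottom, by group; symbols stand for the library numbers, open symbols for 0 counts and lines for group means. For each gene the MDM libraries lie above all others, the lipid-laden MDM libraries lie lower, and most microglial libraries are at 0 or at a few CPM.

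Cdh1 (ENSMUSG00000000303, chromosome 8, 106603351 to 106670246, plus strand, mm10) was at 199, 181, 269.7 and 129 CPM in MDM libraries 221, 224, 431 and 718. In lipid-laden MDM it was at 13.0, 3.57 and 8.50 CPM in libraries 221, 224 and 718. The groups were far apart, the highest lipid-laden library lying well under the lowest MDM library. The means were 195 ± 58.3 and 8.36 ± 4.72 CPM (SD, n = 4 and 3), so that lipid-laden MDM held 4.29% of the MDM level, a 23.3-fold lower value (log2 ratio -4.54). Among the 7 genes this was the lowest share. In microglia Cdh1 gave 21, 37, 7 and 0 counts in libraries 221, 224, 431 and 718, a mean of 1.74 ± 1.74 CPM (n = 4), and the MDM mean was 112-fold higher. In lipid-laden microglia 26 counts came from library 221 alone and the other 3 libraries had 0. The mRNA of E-cadherin was thus counted in every MDM library, 1421 times or more, and in 4 of the 8 microglial ones.

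Cdh17 (ENSMUSG00000028217, chromosome 4, 11758147 to 11817895, plus strand) had 0 counts in all 8 microglial libraries. In MDM it was at 50.1, 41.6, 16.9 and 84.2 CPM in libraries 221, 224, 431 and 718, and in lipid-laden MDM at 2.97, 5.52 and 11.8 CPM in libraries 221, 224 and 718. Library 718 was the highest with and without lipid load, and the ranges of the groups did not overlap. The means of 48.2 ± 27.8 and 6.77 ± 4.55 CPM (n = 4 and 3) put lipid-laden MDM at 14.0% of MDM, 7.13-fold lower, or 8.80% without lipid-laden library 718. Taking 3 counts over the 4 microglial libraries as the limit that 0 counts allow, the MDM level was at least 604-fold higher than in microglia, and lipid-laden MDM at least 90.1-fold higher than lipid-laden microglia. Such limits cover counting error only, since the reads carried no molecular identifiers.

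Epcam (ENSMUSG00000045394, chromosome 17, 87635979 to 87651129, plus strand) was the steadiest of the 7 genes in MDM. It was at 157, 158, 143 and 131 CPM in libraries 221, 224, 431 and 718, a mean of 147 ± 12.7 CPM and a coefficient of variation of 8.62% (n = 4). Lipid-laden libraries 221, 224 and 718 were at 5.18, 14.3 and 11.6 CPM, a mean of 10.4 ± 4.68 CPM (n = 3) that was 7.03% of the MDM mean, 14.2-fold lower. No lipid-laden library came near the MDM range, and library 221, the lowest with lipid load, was among the higher ones without it. In microglia there were 11 counts in library 221, 16 in library 431 and 0 in the other 2, and MDM were 196-fold higher. In lipid-laden microglia the only counts were 6 in library 718.

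Plet1 (ENSMUSG00000032068, chromosome 9, 50494525 to 50505482, plus strand), which encodes a surface protein named for placenta-expressed transcript and known from trophoblast, hair follicle and gut dendritic cells, had the largest coefficient of variation in MDM, 64.4%. It was at 162 CPM in MDM library 221 against 59.8, 56.0 and 52.4 CPM in libraries 224, 431 and 718, and at 24.5 CPM in lipid-laden library 221 against 4.87 and 4.25 CPM in libraries 224 and 718. The libraries of number 221 were thus highest in both groups, and the groups still did not overlap. The means were 82.6 ± 53.2 and 11.2 ± 11.5 CPM (n = 4 and 3), 13.6% of MDM or 7.38-fold lower. Without lipid-laden library 221 the share was 5.52%, 18.1-fold lower. Microglia had 13 counts, all in library 221, and lipid-laden microglia 0, so that MDM were 246-fold higher than microglia. Plet1 shares 261 of its 1947 exon bases with Plet1os on the opposite strand. The sources used here do not state how the counting treated strand, so reads in the shared bases cannot be told apart. Plet1os itself had 166 counts in MDM, 8 in lipid-laden MDM, 17 in microglia and 0 in lipid-laden microglia.

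Hepacam2 (ENSMUSG00000044156, chromosome 6, 3457096 to 3498298, minus strand), an immunoglobulin-family member known from the tuft cells of the gut, was the only one of the 7 whose highest library among numbers 221, 224 and 718 was not the same with and without lipid load. MDM libraries 221, 224, 431 and 718 were at 126, 161, 124 and 180.4 CPM, and lipid-laden libraries 221, 224 and 718 at 24.8, 18.1 and 12.3 CPM. Library 718 was thus the highest of the 4 without lipid load and the lowest of the 3 with it, and the groups did not overlap. Means were 148 ± 27.7 and 18.4 ± 6.26 CPM (n = 4 and 3), 12.4% of MDM or 8.04-fold lower. Microglia had 3 counts, all in library 221, a ratio of 1783 in favour of MDM with a 95% exact binomial counting interval of 610 to 8648, and lipid-laden microglia had 0.

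Krt80 (ENSMUSG00000037185, chromosome 15, 101347444 to 101370162, minus strand), a type II keratin of intermediate filaments near cell junctions, had the lowest MDM mean of the 7 genes. It was at 27.5, 56.8, 26.7 and 43.2 CPM in MDM libraries 221, 224, 431 and 718, and at 0.991, 14.1 and 5.67 CPM in lipid-laden libraries 221, 224 and 718. Lipid-laden libraries 221 and 224 lay 14.2-fold apart, the widest gap within a group of MDM for these genes. The means were 38.6 ± 14.3 and 6.91 ± 6.62 CPM (n = 4 and 3), 17.9% of MDM or 5.58-fold lower, and 8.64% or 11.6-fold lower without lipid-laden library 224. Microglia had 0 counts, which puts MDM at least 470-fold higher, and lipid-laden microglia had 22 counts in library 221 only. The ranges of lipid-laden MDM and lipid-laden microglia overlapped. Krt80 shares 263 of its 6393 exon bases with Gm35853 on the opposite strand, and reads in the shared bases cannot be told apart without the strand. Gm35853 had 1117 counts in MDM, 146 in lipid-laden MDM, 11 in microglia and 9 in lipid-laden microglia.

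Dcstamp (ENSMUSG00000022303, chromosome 15, 39745930 to 39760938, plus strand), the fusion gene of the set, was at 103, 65.5, 113 and 123 CPM in MDM libraries 221, 224, 431 and 718. Lipid-laden libraries 221, 224 and 718 were at 2.64, 4.33 and 10.8 CPM. The means of 101 ± 25.0 and 5.91 ± 4.29 CPM (n = 4 and 3) gave 5.85% of MDM, 17.1-fold lower, and 3.45% or 29.0-fold lower without lipid-laden library 718. The MDM and lipid-laden MDM ranges did not overlap. Microglia had 23 counts in library 221 and 9 in library 718, with MDM 115-fold higher, and lipid-laden microglia had 44 counts in library 431 and 2 in library 221. That 1 microglial library, at 4.53 CPM, lay within the range of lipid-laden MDM.

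For all 7 genes the ranges of MDM and microglia did not overlap, which held in the same direction for 13.8% of all 14843 tested genes. By edgeR, 23.2% of all genes were called in this contrast in either direction and 10.7% were called higher in MDM. For all 7 the ranges of lipid-laden MDM and MDM did not overlap either, which held for 10.7% of all genes in that direction, while 8.17% of all genes were called in either direction and 2.96% were called lower. Both contrasts were used to choose the genes, so nothing is read from these counts. The fitted log2 fold changes in lipid-laden MDM placed the 7 between the lowest 1.15% (Cdh1) and the lowest 3.88% (Krt80) of all genes tested. In lipid-laden MDM against lipid-laden microglia, the ranges of 5 of the 7 did not overlap, against 7.35% of all genes in that direction, with Krt80 and Dcstamp as the exceptions. In that contrast 2.78% of all genes were called in either direction, 2.2% higher and 0.579% lower. The lipid-laden MDM mean was 12.8-fold that of lipid-laden microglia for Cdh1, 67.9-fold for Epcam, 12.5-fold for Krt80 and 5.00-fold for Dcstamp. Against 0 counts it was at least 232-fold higher for Hepacam2 and at least 138-fold higher for Plet1. These comparisons share libraries with the ones the choice was made on.

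Lipid-laden and other microglia were also compared, a contrast in which the choice of genes high in MDM left all 7 low in both groups. By edgeR's quasi-likelihood test none of the 7 passed, the lowest adjusted p being 0.479 for Krt80. None passed with DESeq2 or under any other setting tried. Nothing is read from this, since the 7 genes passed the filter through their counts in the MDM groups. Cdh17 had 0 counts in both groups of microglia, so no difference could be seen. Of all 14843 genes, 0% were called by edgeR, with 1367 at an unadjusted p under 0.05, and DESeq2 called 169. At such counts little can be detected: 19 of 28 values in microglia and 23 of 28 in lipid-laden microglia were 0, and no value passed 4.53 CPM. The summed levels, at 3.79 ± 2.64 and 2.54 ± 2.60 CPM (n = 4 each), overlapped.

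The libraries with a shared number allow the 7 genes to be followed from MDM to lipid-laden MDM within a number, without knowing whether a number is an animal. All 21 comparisons, 7 genes in 3 numbers, were lower with lipid load, at 1.97% to 24.8% of the MDM level. This direction followed from the choice of genes, since the ranges of the 2 groups did not overlap for any of the 7. Ranges were separate in that direction for 10.7% of all tested genes. How many of all genes were lower in all 3 numbers was not counted. The lowest share was that of Cdh1 in number 224, 50.7-fold lower, and the highest was that of Krt80 in the same number, 4.04-fold lower. In number 221 Krt80 was at 3.60%, Epcam at 3.29% and Dcstamp at 2.56%, while Hepacam2 was at 19.7% and Plet1 at 15.1%. Number 718 was the most even, from 6.61% for Cdh1 to 14.0% for Cdh17. Which gene kept most of its level therefore differed between numbers, and no gene was the most retained in all 3.

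**Figure D2:**
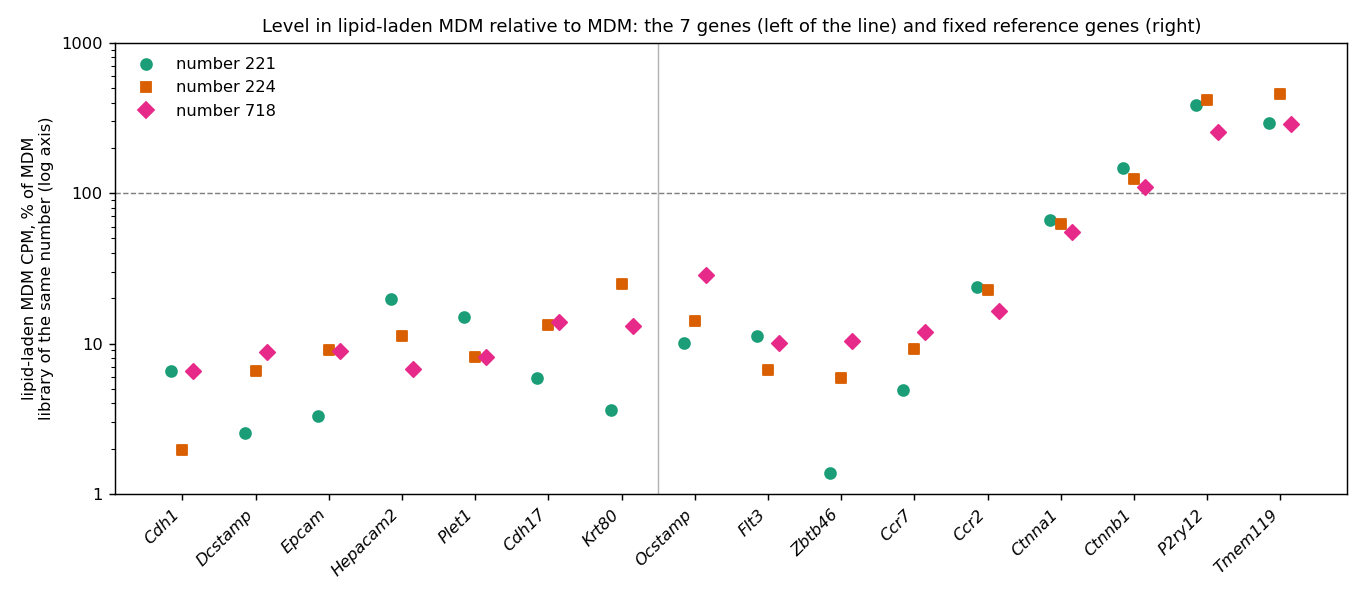
Level in each lipid-laden MDM library as a percent of the MDM library of the same number, on a log axis, for the 7 genes on the left and 9 other genes on the right. All points of the 7 genes lie between 1.97% and 24.8%; the dendritic cell genes Flt3, Zbtb46 and Ccr7 lie between 1.38% and 12.01%, Ctnna1 and Ctnnb1 between 54.9% and 148%, around the dashed line of no difference, and the microglial genes P2ry12 and Tmem119 above it.

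Levels of different genes are compared per kilobase of exon. In MDM the order was Epcam at 67.1 ± 5.78, Cdh1 at 42.5 ± 12.7, Plet1 at 42.4 ± 27.3, Dcstamp at 37.9 ± 9.39, Hepacam2 at 25.1 ± 4.72, Cdh17 at 10.8 ± 6.22 and Krt80 at 6.03 ± 2.24 CPM per kb (SD, n = 4). The libraries' ranges separated neighbours in this order only between Epcam and Cdh1 and between Hepacam2 and Cdh17. In lipid-laden MDM Plet1 came first at 5.75 ± 5.90 and Krt80 last at 1.08 ± 1.04 CPM per kb (n = 3), and the ranges of all neighbours overlapped. Cdh1 went from the second place to the fifth. Its share of the summed CPM of the 7 genes was 25.6% in MDM and 12.3% in lipid-laden MDM, while that of Hepacam2 was 19.4% and 27.1%.

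Among numbers 221, 224 and 718, the number with the highest level in MDM was also the highest in lipid-laden MDM for 6 of the 7 genes, all but Hepacam2. Over the 12967 genes that could be compared, this was so for 41.1%. It was 221 for Cdh1 and Plet1, 224 for Epcam and Krt80, and 718 for Cdh17 and Dcstamp, so that no number was high for all of them.

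Markers of other cells also differed between MDM and lipid-laden MDM, some being higher and some lower with lipid load. The microglia list, 12 genes, summed to 3697 ± 903 CPM in MDM (2770 to 4588) and 10512 ± 2110 CPM in lipid-laden MDM (8142 to 12187), which was 284% of MDM, against 16882 ± 3252 CPM in microglia. P2ry12, a purinergic receptor of microglia, was at 331% and Tmem119, a microglial surface protein, at 291% of the MDM mean. All 12 genes of this list were called lower in MDM than in microglia, and 11 of 12 were called higher in lipid-laden MDM than in MDM. The monocyte-derived list, also 12 genes, summed to 4399 ± 342 CPM in MDM (4009 to 4716) and 1835 ± 180 CPM in lipid-laden MDM (1636 to 1985), or 41.7%. Ccr2, the chemokine receptor of monocytes, was at 22.4%. Of this list 5 of 12 genes were called lower in lipid-laden MDM and none higher. The part of a change in the mix of cells in the lower levels of the 7 genes was not tested. Single genes of the list differed widely, and Plac8 was at 577 ± 84.3 and 63.2 ± 27.2 CPM in MDM and lipid-laden MDM.

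Dendritic cell genes, like the 7 genes, were lower in lipid-laden MDM. The list of 15 genes summed to 4214 ± 1206 CPM in MDM (2648 to 5549), 2102 ± 351 CPM in lipid-laden MDM (1816 to 2493) and 2079 ± 568 CPM in microglia (1394 to 2656). Most of these sums came from Cd83, a maturation marker that was at 2144 ± 580 CPM in MDM, 1842 ± 341 CPM in lipid-laden MDM and 1964 ± 589 CPM in microglia. Without Cd83 the list summed to 2070 ± 660 CPM in MDM (1301 to 2913), 259 ± 27.6 CPM in lipid-laden MDM (229.6 to 284) and 115 ± 28.3 CPM in microglia (89.3 to 152), so that lipid-laden MDM held 12.5% of the MDM level in place of 49.9%. Of its 13 tested genes 11 were called higher in MDM than in microglia (edgeR, median log2 fold change 5.18), and 6 of 13 were called lower in lipid-laden MDM (median -3.24). Flt3, the cytokine receptor of dendritic cell precursors, was at 10.0%, Zbtb46, a transcription factor of conventional dendritic cells, at 7.00% and Ccr7, which guides them to lymph nodes, at 10.6% of the MDM mean. Kmo, an enzyme of tryptophan breakdown, was at 358 ± 37.1 and 30.1 ± 12.7 CPM in the 2 groups (log2 fold change -3.57, SE 0.44, edgeR adjusted p = 0.000188). Cd207, the langerin gene of Langerhans cells, had 0 counts in all 15 libraries. Whether dendritic cells within the MDM gate carried the 7 genes was not tested.

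**Figure D3:**
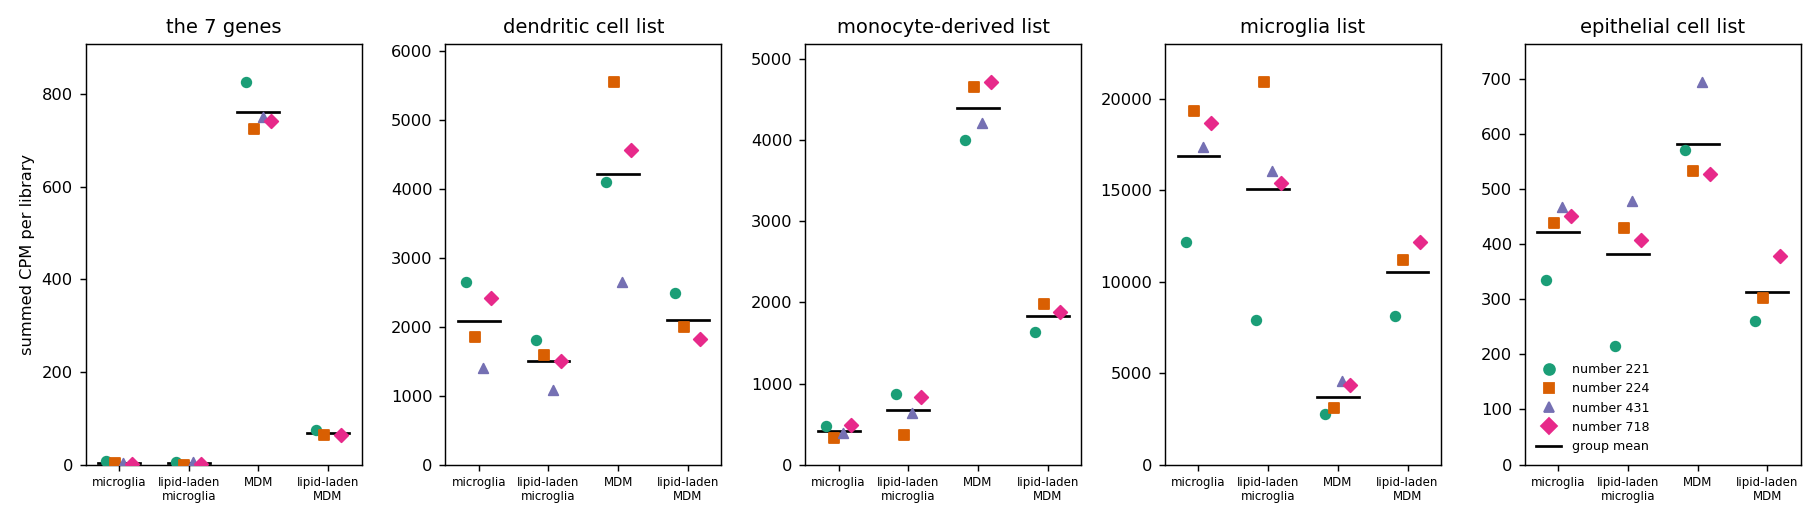
Summed CPM of the 7 genes and of 4 marker lists in every library, each panel with its own linear axis from 0; symbols stand for library numbers and lines for group means. The 7 genes, the dendritic cell list and the monocyte-derived list are lower in lipid-laden MDM than in MDM by mean, and the microglia list is higher (10512 against 3697 CPM); the dendritic cell sums are mostly Cd83 and the epithelial sums mostly Spint1.

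Epithelial cells, the usual site of Cdh1, Epcam and Krt80, were checked by a list of 21 genes that holds none of the 7. In MDM 9 of the 21 had 0 counts in every library, among them Krt5, Krt14, Cldn3, Cldn4, Esrp1 and Grhl2, and in lipid-laden MDM 13 did. Esrp1, a splicing factor of epithelium, had 0 counts in all 15 libraries. Krt8 and Krt18, the keratin pair of simple epithelia, were at 0.730 ± 0.957 and 2.15 ± 2.59 CPM in MDM (n = 4). The list summed to 581 ± 77.3 CPM in MDM (528 to 694), 313 ± 59.6 CPM in lipid-laden MDM (260 to 378) and 423 ± 59.3 CPM in microglia (336 to 467), and 1 gene, Spint1, made up 552 ± 84.5 of the 581 CPM. Without it the sums were 29.7 ± 10.1 CPM in MDM, 25.3 ± 9.24 CPM in lipid-laden MDM and 40.7 ± 6.53 CPM in microglia. Only 7 of its genes could be tested. The choroid plexus genes Ttr and Kl had 0 counts in MDM and lipid-laden MDM. The name epithelial thus describes the usual site of Cdh1, Epcam and Krt80, and not that of Dcstamp. The defining genes of epithelium were at or near 0 in these libraries.

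T and NK cell genes summed to 71.1 ± 56.1 CPM in MDM (31.4 to 154) and 51.4 ± 28.7 CPM in lipid-laden MDM (33.2 to 84.5), or 72.4% of MDM, and 119% without MDM library 221, which turns the direction. Cd3e was at 1.25 ± 1.36 CPM in MDM. B and plasma cell genes summed to 511 ± 38.7 CPM (461 to 552) and 325 ± 73.7 CPM (240 to 375), or 63.5%, of which Ighm, an antibody heavy chain gene, made up 426 ± 45.2 and 254 ± 60.7 CPM. Igha, another heavy chain gene, fell with lipid load from 49.1 ± 14.5 to 3.73 ± 2.31 CPM (edgeR log2 fold change -3.71, SE 0.54, adjusted p = 0.00305, called without each library in turn). Neutrophil genes summed to 122 ± 12.7 CPM in MDM (105 to 136) and 322 ± 214 CPM in lipid-laden MDM (168 to 566), or 265%, and 165% without lipid-laden library 224. Of these sums Csf3r made up 110 ± 15.1 and 197 ± 57.0 CPM, and it was at 272 ± 38.8 CPM in microglia. Without Csf3r the sums were 11.4 ± 4.25 CPM in MDM and 126 ± 165 CPM in lipid-laden MDM. Glioma and progenitor genes were at 515% of the MDM mean, with 19.4 ± 5.73 (12.01 to 24.6) against 99.8 ± 34.0 CPM (65.1 to 133). Olig2, a transcription factor of the tumour cells and their progenitors, was at 0.716 ± 0.899 and 3.58 ± 1.11 CPM in the 2 groups of MDM. The part of these cells in the levels of the 7 genes was not tested.

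Genes related to the 7 were then read in 9 lists that leave the 7 out. The lists hold 123 tested genes, of which 36 were called higher and 27 lower in MDM than in microglia (edgeR, adjusted p under 0.05), where 10.7% of all genes were called higher and 12.5% lower. In lipid-laden MDM against MDM, 16 were called higher and 10 lower, where 5.21% and 2.96% of all genes were. These last counts depended on single libraries. The 16 became 10 without MDM library 224, 431 or 718 and 9 without lipid-laden library 224. The 10 became 5 without MDM library 224 or 718, 3 without lipid-laden library 224 and 2 without lipid-laden library 718. The median log2 fold change of all genes was -0.12 for MDM against microglia and 0.04 for lipid-laden MDM against MDM.

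The intracellular partners of cadherins did not move as a group. Of 15 tested linkage genes 5 were called higher and 4 lower in MDM (median log2 fold change -0.36), and 2 were higher and 1 lower in lipid-laden MDM (median -0.59). Ctnna1, the catenin that ties E-cadherin to actin, was at 70.3 ± 15.8 CPM in microglia and at 210.3 ± 44.9 CPM in MDM (edgeR log2 fold change 1.58, SE 0.22, adjusted p = 7.78e-05), and at 64.5% of MDM with lipid load (edgeR adjusted p = 0.106). Ctnnb1, or beta-catenin, which binds the tail of E-cadherin, was at 131 ± 13.4 and 158 ± 12.8 CPM in MDM and lipid-laden MDM, 121% of MDM (edgeR adjusted p = 0.286). Group means of Ctnnb1 thus lay between 131 and 189 CPM over all 4 groups, where those of Cdh1 ranged from 0.653 to 195 CPM. Ctnnd2, delta-catenin, had the order of means of Cdh1, from 5.23 ± 1.76 CPM in microglia to 45.1 ± 7.91 in MDM and 5.69 ± 2.00 in lipid-laden MDM (edgeR log2 fold change -2.98, SE 0.53, adjusted p = 0.00249, called without each library in turn). Pkp4, a plakophilin relative of junctions, went the other way, at 77.6 ± 23.8, 12.4 ± 1.15 and 36.5 ± 17.8 CPM in the same order (edgeR log2 fold change 1.55, SE 0.32, adjusted p = 0.0063).

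None of the 13 other cadherins that could be tested had the sign of Cdh1 and Cdh17. Most were at low levels, and apart from Clstn1 and Cdh23 no mean in microglia passed 8.32 CPM. Of these family members, none was called higher in MDM and 6 were called lower, all 13 having a negative log2 fold change (median -3.63). In lipid-laden MDM all 13 were positive (median 2.55), and 1, Cdh26, was called. Clstn1, a calsyntenin, was at 56.0 ± 16.2 CPM in microglia and 9.20 ± 5.75 CPM in MDM (edgeR log2 fold change -2.61, SE 0.44, adjusted p = 0.000498). Cdh26 had 46 counts in microglia, 0 in MDM and 28 in lipid-laden MDM, at least 12.02-fold higher with lipid load, a call that 6 of 7 single omissions ended. Cdh2, the N-cadherin gene, had 126 counts in microglia and 0 in MDM, at least 44.1-fold lower. Cdh23 and Clstn3, the latter with 79 counts against 1 (ratio 83.0, counting interval 14.5 to 3319), were also lower in MDM, calls that were lost without microglial library 431 for Cdh23 and without MDM library 221, 431 or 718 for Clstn3.

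Of 9 tested regulators of Cdh1, none was called in lipid-laden MDM. Zeb1, Zeb2 and Snai1, repressors of Cdh1 in epithelium, had log2 fold changes of -0.51 (SE 0.30), 0.53 (SE 0.24) and -1.31 (SE 1.86), with edgeR adjusted p = 0.342, 0.204 and 0.749. Zeb2 was well expressed, at 185 ± 52.8 CPM in MDM, where Cdh1 was highest, and 265 ± 53.0 CPM in microglia (edgeR adjusted p = 0.112). Klf4, a zinc finger activator of epithelial genes, was at 90.8 ± 39.9 CPM in microglia, 192 ± 35.8 in MDM (edgeR log2 fold change 1.08, SE 0.32, adjusted p = 0.0238) and 90.9 ± 36.2 in lipid-laden MDM (edgeR log2 fold change -1.08, SE 0.35, adjusted p = 0.0749). Its higher level in MDM was lost without MDM library 224 or 431, and its lower level with lipid load was called by DESeq2, with the replicate block and with the 2 groups fitted alone. Klf8, with 89 counts in MDM against 0 in microglia, a bound of 28.2-fold, was called higher, a call lost with the replicate block and without any 1 of 7 libraries.

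Among the partners of EpCAM, genes moved both ways, with 5 of 13 tested called higher and 4 lower in MDM (median log2 fold change 0.30), and 3 higher and 1 lower in lipid-laden MDM (median 0.30). Spint2, an inhibitor of the membrane protease matriptase, which cleaves EpCAM, was at 1.20 ± 1.40 CPM in microglia, 52.1 ± 11.4 in MDM (edgeR log2 fold change 5.43, SE 1.07, adjusted p = 0.00169) and 5.61 ± 2.03 in lipid-laden MDM. St14, matriptase itself, was the reverse, at 24.3 ± 2.85, 3.48 ± 3.85 and 13.7 ± 4.48 CPM. Its rise with lipid load (edgeR log2 fold change 1.96, SE 0.57, adjusted p = 0.0464) was lost with RLE factors, with the 2 groups fitted alone and without any 1 of 6 libraries, MDM library 718 being the exception. Spint1, the related inhibitor, fell with lipid load (edgeR log2 fold change -0.94, SE 0.24, adjusted p = 0.0272), which was lost without MDM library 431 or lipid-laden library 221 or 224. Cd9, a tetraspanin that associates with EpCAM, rose (edgeR log2 fold change 0.79, SE 0.15, adjusted p = 0.0046), as did Adam10, a sheddase (edgeR log2 fold change 0.81, SE 0.17, adjusted p = 0.00866).

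Keratins other than Krt80 were scarce, and only 5 of 19 passed the filter. In MDM 1 of the 5 was called higher and 1 lower, and none was called in lipid-laden MDM. Krt7 was the higher one, with 75 counts in MDM against 0 in microglia and a bound of 23.8-fold, a call lost with DESeq2, with the replicate block and without any 1 of the 4 microglial libraries. Krt1 had 48 counts in microglia and 0 in MDM, at least 16.8-fold lower, lost without microglial library 224 or any 1 MDM library. With its 1482 counts in MDM, Krt80 stood above both. In lipid-laden MDM Krt7 and Krt1 had edgeR adjusted p = 0.342 and 0.181.

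Of the junctional immunoglobulin family, to which Hepacam2 is related, 2 of 12 tested genes were called higher and 3 lower in MDM (median log2 fold change -0.70), and 2 higher and 2 lower in lipid-laden MDM (median 0.16). Jaml, a leukocyte partner of the junctional receptor CXADR, was at 0.886 ± 1.32 CPM in microglia, 218 ± 39.4 in MDM (edgeR log2 fold change 7.85, SE 0.89, adjusted p = 1.38e-05) and 29.6 ± 12.9 in lipid-laden MDM (edgeR log2 fold change -2.88, SE 0.74, adjusted p = 0.0259). Alcam, an adhesion receptor of leukocytes, was at 6.75 ± 4.34, 43.8 ± 12.4 and 8.10 ± 2.58 CPM (edgeR log2 fold change -2.43, SE 0.56, adjusted p = 0.0128 with lipid load). The calls with lipid load were lost for Jaml with DESeq2 and without MDM library 221 or 718 or lipid-laden library 224 or 718, and for Alcam without lipid-laden library 718. Cadm1, which binds its like on the next cell, went the other way, at 213 ± 24.5, 12.1 ± 5.45 and 90.3 ± 28.3 CPM (edgeR log2 fold change 2.91, SE 0.30, adjusted p = 5.73e-05), as did Jam2 (edgeR log2 fold change 1.41, SE 0.41, adjusted p = 0.0437), whose call was lost with the 2 groups fitted alone and without any 1 of 6 libraries.

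Genes of cell fusion did not follow Dcstamp as a list. Of 20 tested, 5 were called higher and 7 lower in MDM (median log2 fold change -0.14), and 5 higher and 1 lower in lipid-laden MDM (median 0.56). Ocstamp, which encodes OC-STAMP, the relative of DC-STAMP required beside it for fusion, had the pattern of Dcstamp. It was at 28.6, 30.6, 34.4 and 32.9 CPM in MDM libraries 221, 224, 431 and 718 and at 2.86, 4.33 and 9.45 CPM in lipid-laden libraries 221, 224 and 718. These groups did not overlap, and the lipid-laden mean of 5.55 ± 3.46 CPM was 17.5% of the MDM mean of 31.6 ± 2.54 CPM. Against microglia, at 1.08 ± 1.00 CPM, Ocstamp was higher in MDM (edgeR log2 fold change 4.86, SE 0.80, adjusted p = 0.000419), and its difference with lipid load did not pass (edgeR log2 fold change -2.51, SE 0.79, adjusted p = 0.0638). Cd47, a ligand in macrophage fusion, was at 161 ± 44.7 CPM in microglia, 606 ± 49.9 in MDM and 328 ± 32.6 in lipid-laden MDM. Its receptor gene Sirpa rose (edgeR log2 fold change 0.81, SE 0.19, adjusted p = 0.0132), though not without lipid-laden library 224. The tetraspanin Cd81 (edgeR log2 fold change 1.88, SE 0.17, adjusted p = 3.76e-05), Cd9 and Trem2, a lipid-sensing receptor (edgeR log2 fold change 1.33, SE 0.16, adjusted p = 0.000163), rose with lipid load and had been lower in MDM than in microglia.

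The osteoclast programme, in which Dcstamp is best known, showed 3 of 17 tested genes higher and 3 lower in MDM (median log2 fold change 0.17), and 3 higher and none lower in lipid-laden MDM (median 0.25). Acp5, the osteoclast acid phosphatase, was at 21.7 ± 12.5 CPM in microglia, 316 ± 89.8 in MDM (edgeR log2 fold change 3.86, SE 0.45, adjusted p = 1.79e-05) and 375 ± 50.6 in lipid-laden MDM, so that its mean was not lower with lipid load. Tnfrsf11a, the receptor RANK, was at 51.7 ± 18.5, 25.3 ± 4.52 and 50.3 ± 5.25 CPM, higher with lipid load (edgeR log2 fold change 0.99, SE 0.26, adjusted p = 0.0281) but not without any 1 of 6 libraries. Clcn7, a lysosomal chloride transporter, rose too (edgeR log2 fold change 0.94, SE 0.20, adjusted p = 0.0095, called without each library in turn), as did Irf8, a repressor of osteoclast formation (edgeR log2 fold change 0.61, SE 0.16, adjusted p = 0.032), a call lost without the filter on low counts and without any 1 of 5 libraries.

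Of the 9 lists, that of genes tied to interleukin-4, which induces Cdh1 in cultured macrophages, had the most genes called higher in MDM. Of 21 tested, 14 were called higher and none lower (median log2 fold change 1.84), and in lipid-laden MDM 1 was called higher and 5 lower (median -0.79). Arg1, Retnla and Mrc1 were higher in MDM than in microglia by mean but were not called (edgeR adjusted p = 0.26, 0.142 and 0.126). Irf4 and Batf3, which were called higher in MDM, are also on the dendritic cell list. Whether interleukin-4 acted on these cells was not tested. The receptor gene Il4ra and its transcription factor Stat6 were not called in either contrast. Il4ra was at 265 ± 54.8 CPM in microglia, 266 ± 49.0 in MDM and 297 ± 137 in lipid-laden MDM, and Stat6 at 152 ± 31.5, 161 ± 18.1 and 191 ± 73.4 CPM, with edgeR adjusted p of 0.678 or more for both genes in both contrasts. Clec10a, a lectin of alternatively activated macrophages and dendritic cells, was at 0.892 ± 1.08, 225 ± 61.2 and 19.2 ± 8.43 CPM in microglia, MDM and lipid-laden MDM (edgeR log2 fold change -3.56, SE 0.94, adjusted p = 0.0296 with lipid load). Mgl2, its close relative, was at 7.11 ± 9.43, 857 ± 375 and 96.2 ± 58.2 CPM, and reads that the pair share were not set apart. The calls with lipid load of Clec10a and of Socs1, a feedback inhibitor (edgeR log2 fold change -1.21, SE 0.34, adjusted p = 0.0408), were lost without any 1 of 5 and 6 libraries, that of Clec10a with DESeq2 and that of Socs1 without the filter on low counts. That of Il13ra1, a subunit of the receptor (edgeR log2 fold change -0.76, SE 0.19, adjusted p = 0.02), was lost without MDM library 224 or lipid-laden library 224 or 718. Alox15, the exception that was called higher (edgeR log2 fold change 6.90, SE 1.87, adjusted p = 0.0329), was at 0.175 ± 0.350 and 21.7 ± 35.2 CPM in the same 2 groups, and lost its call with the replicate block and without any 1 of 4 libraries. Tgm2, a transglutaminase that was called higher in MDM, had close means of 453 ± 125 CPM in MDM and 448 ± 15.7 CPM in lipid-laden MDM.

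**Figure D4:**
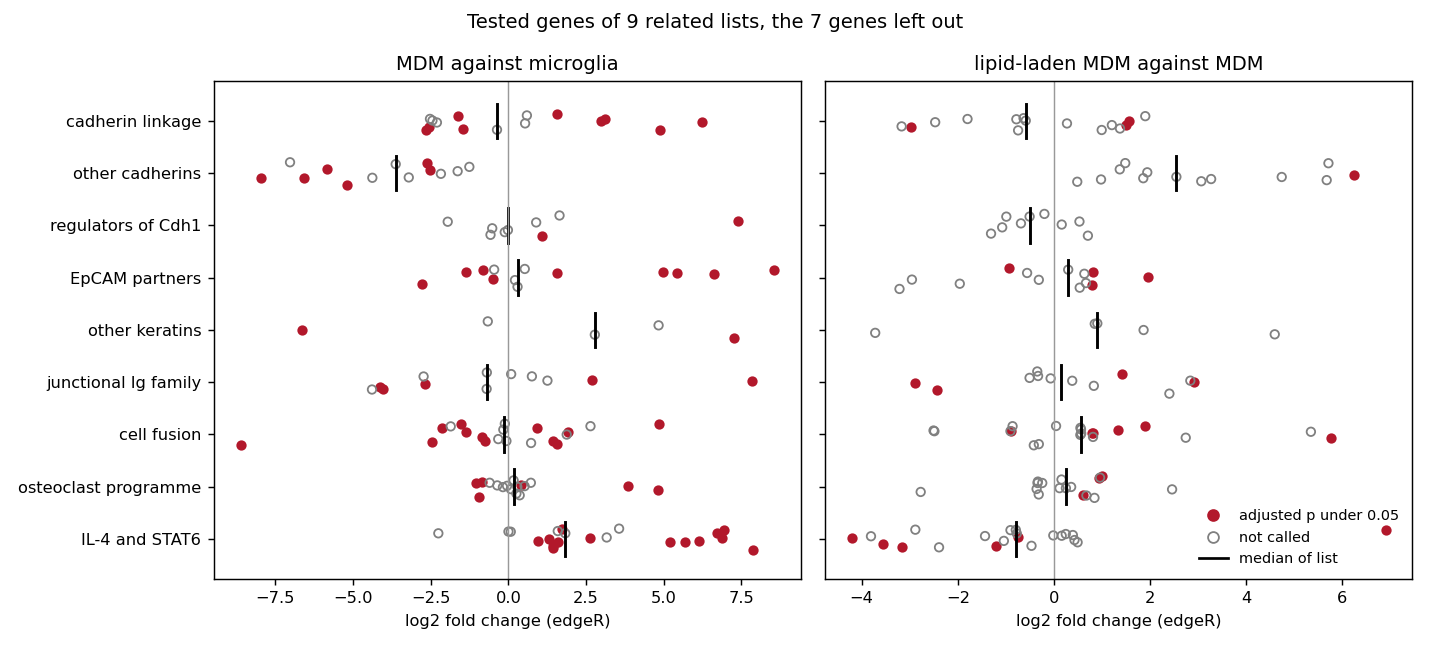
Log2 fold changes (edgeR) of the tested genes of 9 related lists, without the 7 genes, in MDM against microglia on the left and in lipid-laden MDM against MDM on the right; filled points were called at an adjusted p under 0.05 and bars are list medians. The other cadherins lie on the opposite side of 0 from Cdh1 and Cdh17 in both panels, with medians of -3.63 and 2.55, and the interleukin-4 and STAT6 list lies mostly to the right in the left panel (median 1.84).

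The genes most like each of the 7 were sought over all 15 libraries, as the smallest root mean square difference of centred log2 (CPM + 0.1) among 11987 genes. The 21 nearest entries, 3 for each gene, were 18 distinct genes. For Cdh1 they were Ciita, the master regulator of MHC class II genes, at a difference of 1.19, the chemokine gene Ccl17 at 1.25 and the class II gene H2-Eb1 at 1.40. For Epcam they were Btla, an inhibitory receptor of lymphocytes and dendritic cells, at 0.810, Itgae, the integrin subunit that binds E-cadherin, at 1.11 and Acap1 at 1.13. Ciita was at 317 and 32.9 CPM, Btla at 139 and 18.4 CPM and Itgae at 292 and 30.5 CPM in MDM and lipid-laden MDM by mean. The median over all genes was 4.13 for Cdh1 and 4.24 for Epcam.

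Cdh17, Hepacam2 and Plet1 shared neighbours. Gpr141, an orphan receptor, was among the nearest of all 3, at 0.751, 0.704 and 0.834, and Alpk2, a kinase, was nearest to Plet1 at 0.562 and second to Hepacam2 at 0.935. The other entries were Igha, an antibody heavy chain gene, at 0.871 and Mbnl3 at 0.872 for Cdh17, P2ry10 at 1.04 for Hepacam2 and Gpr18 at 0.942 for Plet1. Plet1 and Hepacam2 were also each other's nearest among the 7 genes, at 0.954, with only 2 genes nearer to Hepacam2 and 3 nearer to Plet1. With a pseudocount of 1 the nearest of the 7 to Hepacam2 was Epcam instead, at 0.730. For Krt80 the nearest were Ifitm6 at 1.07, Gpr132 at 1.16 and Pkp3, a desmosomal plakophilin, at 1.24, which averaged 40.3 and 7.25 CPM in the 2 groups of MDM. Dcstamp had the most distant neighbours, Entpd3 at 1.58, Gapt at 1.61 and Il2ra at 1.62. With a pseudocount of 1, only 7 of the 21 entries remained among the nearest, so the names depend on how counts near 0 in microglia are treated. Gpr141 was then among the nearest of Cdh17, Hepacam2, Epcam and Dcstamp, and not of Plet1. The differences were taken over the levels that the 7 genes were chosen on, so a likeness among them follows in part from the choice.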

How the data were processed

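RNA of cells purified by flow cytometry was reverse transcribed from an oligo-dT primer with template switching, per the labels' protocols. The authors deposited whole-number read counts per gene for 15 libraries, not normalized, per the file headers. The submitters' processing notes name mm10; which aligner, counter and strand setting were used, the sources used here do not say. Libraries were grouped by title; 1 entry of the table named no gene and held 0% of counts. Gene coordinates were the table's, which equal those of GENCODE M21, the source of exon lengths.

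Counts were tested with edgeR 4.0.16 (R 4.3.3): TMM, filterByExpr (minimum count 10, minimum total 15), quasi-likelihood test, 1 coefficient per group over all 15 libraries, Benjamini-Hochberg adjustment over 14843 genes, calls at an adjusted p under 0.05. The fit was tested on simulated data. Each SE was taken as the fold change (log2) divided by the root of F. Folds against 0 counts are bounds against 3 counts over the group. Named were the 7 genes, fixed genes, up to 4 called genes of smallest p per list and contrast (2 where none was called) and the 3 genes nearest to each of the 7. Kmo, Cdh2, Zeb1, Snai1, Kl, Plac8, Cd83, Nkg7, Ighm, Csf3r, Arg1, Retnla, Mrc1, Irf4 and Batf3 were named after their values were seen. So were Igha as a B cell gene and the epithelial genes given with counts of 0. Marker sums without their most abundant gene or without 1 MDM library were added after seeing the data. The 7 genes and the lists were chosen with earlier results of these data known. Alternatives were DESeq2 1.42.0, RLE factors, no filter, a replicate block, fits of the 2 groups alone and leaving out each library. Pairs of replicates differed beyond counting noise (chi-square divided by its degrees of freedom was 18.6 or more).

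Same-numbered libraries deviated together, by the correlation of deviations from group means across genes, for lipid-laden and other microglia (r = 0.124 to 0.256, 4 pairs) and for the lipid-laden groups (0.107 to 0.168, 3 pairs); with the replicate block, 119 and 569 genes were called there in place of 0 and 413. Promoters came from RefSeq; proteins were not used here.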

Additional observations from a re-analysis of the deposited data

Results flagged for a closer look

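In groups of 4 libraries, a library was singled out when its gap to the nearest other exceeded 0.829 of the group's range. For values with a normal spread, chance does this in about 1 in 20 groups. Of 43 groups, 8 held such a library. In 6 of the 8 the other libraries were at or near 0. There 1 library with counts meets the rule by itself, so that rate does not apply. Cdh1 was at 2.61 CPM in lipid-laden microglial library 221, Krt80 at 2.21 CPM in the same library and Epcam at 0.610 CPM in lipid-laden microglial library 718, with the other 3 at 0. Dcstamp was at 4.53 CPM in lipid-laden microglial library 431, against 0.201 CPM in the next. Hepacam2 was at 0.310 CPM and Plet1 at 1.34 CPM in microglial library 221, with the others at 0. The remaining 2 were at higher counts. Plet1 was at 162 CPM in MDM library 221, against 59.8 CPM in the next. The B and plasma cell list summed to 425 CPM in microglial library 224, against 340.4 CPM in the next.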

How the results depend on the processing

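The lower level of each of the 7 genes in lipid-laden MDM kept its direction on raw totals, on DESeq2 size factors and without any 1 library. The median log2 ratio was -3.01, and -3.53 to -3.01 with 1 library left out. Counts of calls moved more. For lipid-laden MDM against MDM, 1213 genes became 1955 with DESeq2 and 657 to 1052 with 1 library left out, the fewest without lipid-laden library 718. For the lipid-laden groups, 413 became 798 with DESeq2, 176 with the 2 groups fitted alone and 168 to 378 with 1 library left out. For lipid-laden against other microglia, 0 became 169 with DESeq2, 17 without the filter on low counts, 119 with the replicate block and 0 to 64 with 1 library left out. For MDM against microglia, 3442 became 2755 to 3158 with 1 library left out. Of the genes of the 9 lists, the 16 called higher with lipid load became 9 to 13 and the 10 called lower 2 to 8 with 1 library left out, and the 10 became 19 with the replicate block and 19 with the 2 groups fitted alone. Of 21 nearest genes, 7 were kept with a pseudocount of 1. The cause of these shifts was not tested.

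Single named genes gave 1305 alternative values: none reversed, 137 lost a call and 4 gained one. In the MDM groups, same-numbered libraries correlated at 0.0272 to 0.123 with lipid load (3 pairs) and at 0.0152 to 0.150 against microglia (4 pairs), so the numbers are not taken as pairs there; with the replicate block 1529 and 3969 genes were called in place of 1213 and 3442. Low counts of the 7 genes limit the comparisons within microglia most, where most of their values are 0.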
